A study of Mus musculus with 12 samples.

Results

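The genes described here encode subunits of the 5 oxidative phosphorylation complexes that are written in the nuclear genome. They were chosen by name, as every row whose symbol begins with Nduf followed by a, b, c, s or v and a number, or is Sdha to Sdhd, any Uqcr symbol, Cyc1, a Cox4 to Cox8 symbol or any Atp5 symbol. This took 76 of the 11791 genes measured, namely 36 of complex I, 4 of complex II, 9 of complex III, 11 of complex IV and 16 of complex V. The name rule itself uses no measured value. The 76 IDs were all found in the mouse annotation GENCODE vM21 (GRCm38). By that annotation Atp5sl carries the later symbol Dmac2, which does not name it as a subunit. Ndufa4, counted here with complex I by its name, encodes a protein now assigned to complex IV. The pattern leaves out Cox4i1, Ndufab1, Cycs, Usmg5, Atpif1 and 2010107E04Rik, which are treated at the end with the other genes of the pathway.

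Liver RNA was sequenced from C57BL/6 males that were 10 weeks old and had eaten a methionine- and choline-deficient diet, a diet used to produce steatohepatitis, for 3 weeks. Control, KO and anti-Ly6G groups held 4 pools each, and a pool mixed the RNA of 2 animals. All animals carried Lyzs-Cre, a Cre recombinase driven from the lysozyme 2 locus of myeloid cells, so no group here is free of Cre. KO animals lacked p38γ and p38δ, the stress kinases encoded by Mapk12 and Mapk13, in Cre-expressing cells, and anti-Ly6G animals had received an antibody against Ly6G, a neutrophil surface protein. The mitochondria are labelled C57 for all controls and for the first pair of KO pools (1, 2), but NZB for the last pair (3, 4) and for the entire anti-Ly6G group. Titles of the anti-Ly6G pools read GR1, the labels speak of 12 males per genotype where 4 pools of 2 were sequenced, and nothing says which animals entered which pool. P-values therefore measure the spread between these pools.

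Oxidative phosphorylation passes electrons from NADH (complex I) and succinate (complex II) through ubiquinone to complex III, then by cytochrome c to complex IV, which reduces oxygen. Complexes I, III and IV pump protons out of the mitochondrial matrix, and complex V, the ATP synthase, lets them return while making ATP. Most subunits are encoded in the nucleus and a few core ones in mitochondrial DNA, so each complex except II is built from both genomes. Hepatocytes, the main cells of liver, are rich in mitochondria.

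Values are normalized signals, the recovered reads of a gene scaled to a TMM-adjusted library size, with 13.1 to 22.3 M reads recovered per pool. Pools of a group differed by more than counting noise, with a chi-square per gene between 9.61 and 63.0. Every subunit gene was detected in every pool, at 20 reads or more in its lowest pool. The targeted gene Mapk12 stood at 1.75 to 2.71 in control and 1.63 to 3.06 in KO pools, and Mapk13 was not analysed here, so whole-liver RNA does not check a deletion restricted to myeloid cells and groups are named by their labels. The liver label fits its markers: 10 of 10 hepatocyte markers were measured and none was at 0, with a summed signal of 114269 to 131183 in control pools. Subunit genes had a median coefficient of variation of 7.17% over the control pools, 7.12% over KO pools and 9.96% over anti-Ly6G pools, where the medians over all genes were 10.0%, 9.17% and 12.4%.

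Levels of different subunits are compared here per kilobase of the annotated transcript, as the mean over the 12 pools. Complex V held the highest level, 643 per kb for Atp5b, the catalytic β subunit, followed by 631 per kb for Atp5g3, one of the genes for the membrane c subunit. In complex III the small subunit gene Uqcrq led with 575 per kb and Cyc1, which encodes cytochrome c1, was lowest with 124. Complex IV was led by Cox6a1 with 408 and Cox6c with 367 per kb. Complex I stood lowest as a group, with a median of 88.3 per kb over its 36 genes against 143 in complex II, 235 in complex III, 236 in complex IV and 223 in complex V. Within complex I, Ndufa4 had 417 per kb and Ndufb9, an accessory subunit of the membrane arm, 274, while Ndufb4 had 13.4. The low Ndufb4 level is uncertain, because its processed pseudogene Gm3244, a separate row, had a mean signal of 50.9 in control pools. Ndufb4 itself had 13.7 there, before division by length. Complex II ranged from 185 per kb for Sdhd, a membrane anchor, and 165 for Sdhb, its iron-sulfur subunit, down to 43.9 for Sdhc, the other anchor.

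**Figure D1:**
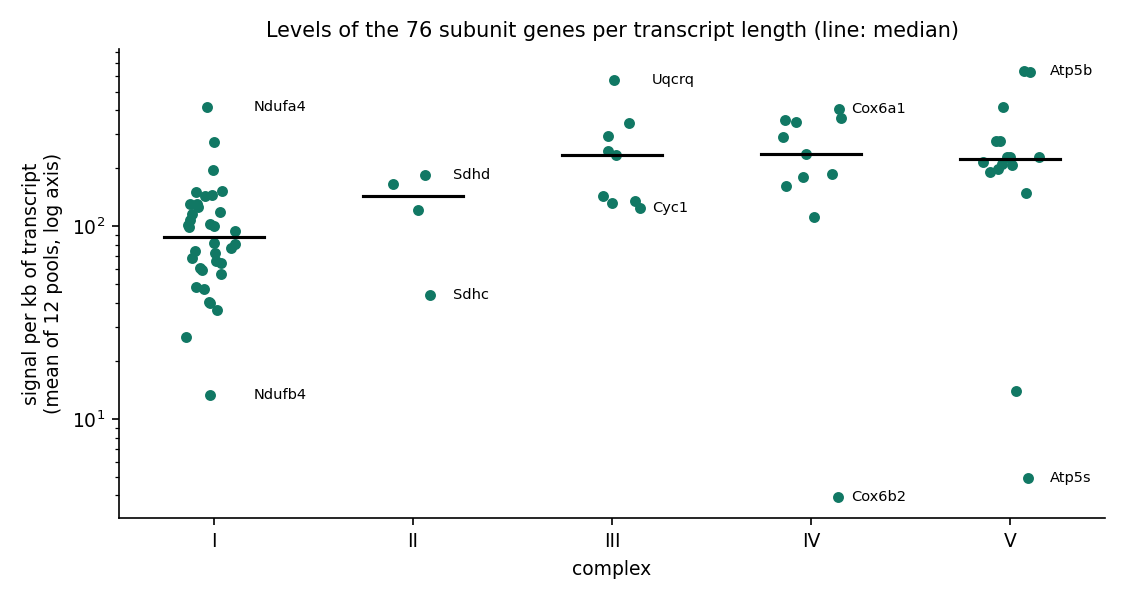
Mean normalized signal per kilobase of transcript over the 12 pools (log axis) for the 76 subunit genes, by complex; each point is a gene, lines are medians and the highest and lowest gene of each complex are named. Complex I sits lowest with a median of 88.3. Cox6b2 lies far below the rest of complex IV at 3.95. Atp5s at 4.92 and Atp5sl at 13.9 lie far below the rest of complex V.

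Paralogous subunits were unequal in level. Cox6b1, the widely expressed form of an intermembrane-space subunit of complex IV, had 356 per kb, and its testis form Cox6b2 had 3.95. Cox7a2 had 179.9 per kb and Cox7a2l, a related gene, had 111. The c subunit genes Atp5g1 and Atp5g3, which encode the same mature protein behind different import signals, had 199 and 631 per kb. These per-kilobase levels depend on the transcript taken for each gene. The share of a gene's 25-base words found in no other annotated gene was under 90% for 32 of the 76 genes. Atp5o was the lowest with 47.2%. Of the 76 genes, 24 shared at least 5% of their words with an annotated processed pseudogene. How the reads of such copies were assigned is not given in the sources used here.

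In KO against control no subunit gene passed the test. None of 76 was called at an adjusted p under 0.05 (limma-trend, Benjamini-Hochberg over all genes), where 132 of 11791 genes were called, or 1.12% (0.585% higher, 0.534% lower). At an unadjusted p under 0.05 there were 7, or 9.21% against 18.9% of all genes, and edgeR and DESeq2 on the recovered reads also called 0 of the 76, where they called 1.30% and 4.89% of all genes. The changes were small and mostly of one sign: 68 of 76 lay below 0 on the log2 scale (89.5%, against 50.4% of all genes), and their median was -0.08 where that of all genes was -0.0013. With every column set to the same total the median of the 76 was -0.01 and that of all genes 0.06. By complex the medians were -0.09 in complex I, -0.04 in complex II, -0.09 in complex III, and -0.06 in both complex IV and complex V.

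The 3 lowest changes in KO were those of Sdhb, Cox7b and Cox7a2l. Sdhb had a signal of 211, 198, 198 and 176 in control pools 1 to 4 and of 193, 171, 150.3 and 151 in KO pools 1 to 4, and the groups overlapped (log2 change -0.24 ± 0.11 SE, adjusted p = 0.243, limma). Cox7b, a small subunit of complex IV, had 181, 159.7, 174 and 149.6 in control and 148, 145, 132 and 137 in KO pools. Every KO pool of Cox7b lay below every control pool, but the change of -0.24 ± 0.08 SE did not pass over all genes (adjusted p = 0.155, limma). Cox7a2l read 126, 126, 125 and 119.6 in control and 114, 112, 93.7 and 106 in KO pools, again without overlap (-0.23 ± 0.08 SE, adjusted p = 0.142, limma). Groups did not overlap for 7 of the 76 genes, all of them lower in KO, which is 9.21% where 6.62% of all genes lay apart in that direction, and 0 lay apart in the higher direction against 5.73%. The other 5 were Ndufb2, Ndufb6, Ndufb9, Atp5g3 and Atp5o.

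The highest values in KO were no clearer. Cox6b2 had 1.79 ± 0.253 (SD, n = 4) in control and 2.19 ± 0.234 in KO pools (log2 change 0.23, adjusted p = 0.471, limma), at a level near the lowest of the table. Atp5s changed by 0.07 and Ndufs7, a core iron-sulfur subunit of complex I, by 0.06, with adjusted p of 0.777 and 0.751 (limma).

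The KO pools were also split by label, and label and other differences between these pools cannot be told apart. With only KO pools 1 and 2, which carry the C57 label like the control pools, the median change of the 76 genes was -0.01. In that fit 0 of the 76 were called, where 0.492% of all genes were called and their median was -0.0009. Within KO, pools 3 and 4 against pools 1 and 2 gave a median of -0.14 where all genes had 0.01, and 71 of 76 genes lay below 0 (93.4%, against 48.2% of all genes). With columns set to equal totals that median was -0.04 and that of all genes 0.11. None of 76 was called in that comparison of 2 against 2 pools, as were 0 of 11791 genes (0%, limma), with 3 subunit genes at an unadjusted p under 0.05 (3.95%, against 9.84% of all genes). EdgeR and DESeq2 on recovered reads called 0 of the 76 there too, though DESeq2 called 130 genes over the whole table. The 2 labels did not overlap for 50 genes, 49 of them lower in the NZB-labelled pools (64.5%, against 26.9% of all genes) and 1 higher (1.32%, against 27%).

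**Figure D2:**
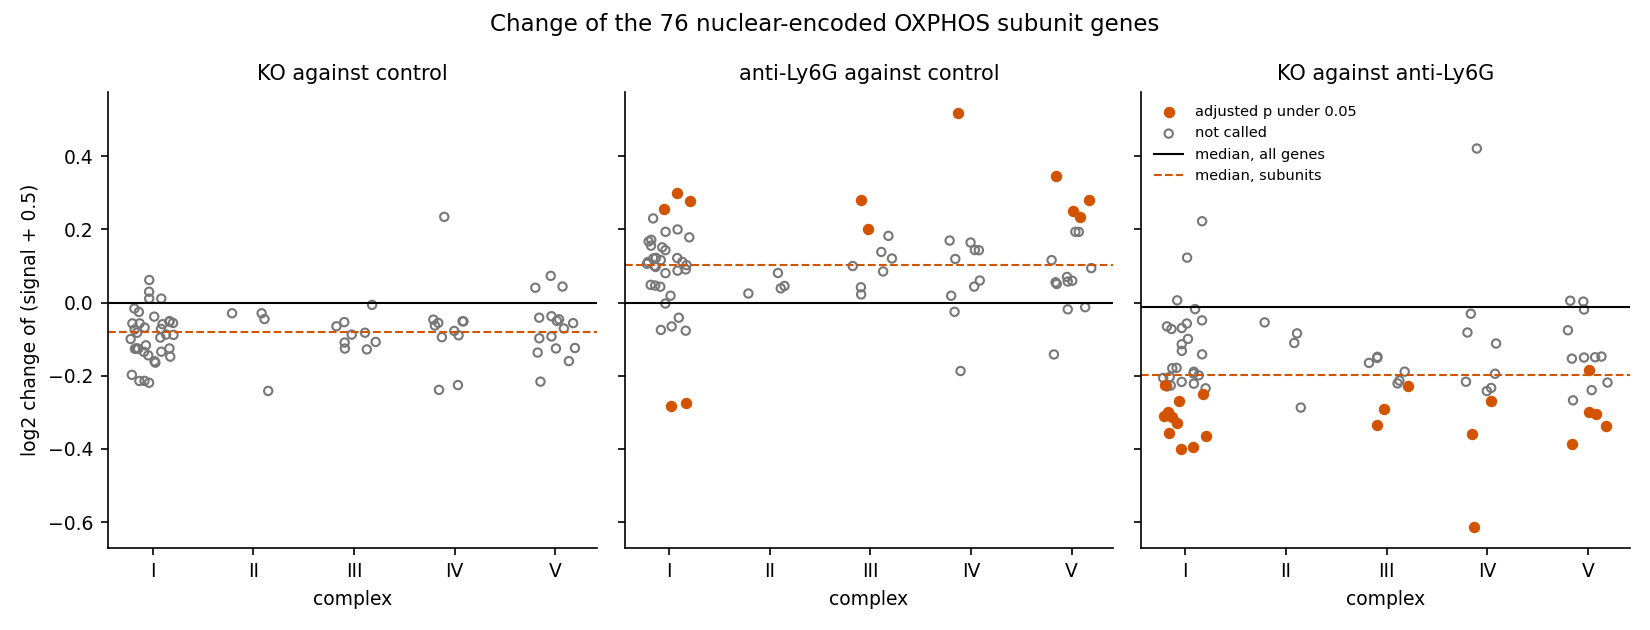
Log2 change of the 76 subunit genes in the 3 comparisons, by complex, on the log2(signal + 0.5) scale; filled points passed an adjusted p of 0.05 (limma), the solid line is the median of all genes and the dashed line that of the subunit genes. The dashed line lies at -0.08 for KO against control, 0.10 for anti-Ly6G against control and -0.20 for KO against anti-Ly6G.

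In anti-Ly6G against control, 12 of the 76 genes passed, 10 higher and 2 lower. That is 15.8%, against 30.4% of all genes called in this comparison, and by direction 13.2% higher against 15.1% and 2.63% lower against 15.3%. The genes that rose were Cox6b1, Atp5k, Ndufb2, Uqcr11, Atp5j2, Ndufb8, Ndufa5, Atp5f1, Atp5c1 and Uqcrc2, by 1.15 to 1.43 times, and those that fell were Ndufa6 and Ndufs5. At an unadjusted p under 0.05 there were 18, or 23.7% against 42.3%. The median of all 76 was 0.10, with 64 above 0 (84.2%, against 49.8% of all genes). Group medians were 0.11 in complex I, 0.04 in complex II, 0.12 in complex III, 0.12 in complex IV and 0.08 in complex V. The deposited scaling bears on these sizes: with columns set to equal totals the median of all genes moved to -0.04 here and to 0.09 in KO against anti-Ly6G, and the subunit genes moved with it, to 0.06 and -0.09.

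The largest change of any subunit gene was that of Cox6b1 (chr7:30616861-30626151, minus strand, GRCm38). Its signal was 214, 183, 202 and 186 in control pools 1 to 4, 198, 181, 172 and 182 in KO pools and 276, 279.9, 265 and 303 in anti-Ly6G pools. All anti-Ly6G pools lay above all other pools, and the means were 196 ± 14.7, 183 ± 10.9 and 281 ± 16.03 (SD, n = 4). The log2 change was 0.52 ± 0.07 SE against control (adjusted p = 0.000252, limma) and -0.61 ± 0.07 SE in KO against anti-Ly6G (adjusted p = 9.21e-05, limma). Its paralog Cox6b2 had 1.26, 1.57, 1.19 and 2.10 in anti-Ly6G pools and was not called against control (-0.19, adjusted p = 0.416, limma).

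Complex V gave 4 of the 10 genes that rose. Atp5k, which encodes the membrane subunit e, had 70.2, 61.8, 65.3 and 64.9 in control and 85.8, 91.3, 72.4 and 84.9 in anti-Ly6G pools, without overlap (0.35 ± 0.08 SE, adjusted p = 0.00672, limma). Atp5f1, for subunit b of the peripheral stalk, had 348, 316, 340.2 and 319 in control and 415, 407, 363 and 389.8 in anti-Ly6G pools, also without overlap (0.25 ± 0.07 SE, adjusted p = 0.0126, limma). For Atp5j2, which encodes the membrane subunit f, anti-Ly6G pool 3 with 139.6 lay inside the control range of 126 to 146, and the other 3 pools had 164 to 181 (0.28 ± 0.09 SE, adjusted p = 0.0299, limma). Atp5c1, the γ subunit of the central stalk, rose by 0.24 ± 0.08 SE (adjusted p = 0.0455, limma), with pool 3 at 262 within the control range. The catalytic subunit gene Atp5b had 1243 ± 99.0 in control and 1292 ± 78.6 in anti-Ly6G pools and did not pass (0.06, adjusted p = 0.607, limma). Atp5a1, for the α subunit that shares the catalytic head with it, had -0.14 (adjusted p = 0.23, limma).

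Complex I gave 3 genes that rose, all for accessory subunits. Ndufb2, of the membrane arm, had 35.0, 35.5, 34.3 and 33.8 in control and 44.7, 47.9, 36.6 and 42.6 in anti-Ly6G pools, and the groups did not overlap (0.30 ± 0.08 SE, adjusted p = 0.0113, limma). Ndufb8, also of the membrane arm, had 104, 95.6, 96.5 and 90.8 in control and 122, 126, 100.7 and 122 in anti-Ly6G pools, where pool 3 again lay inside the control range (0.28 ± 0.09 SE, adjusted p = 0.0283, limma). Ndufa5, of the matrix arm, had 62.8, 54.6, 62.7 and 52.7 in control and 76.3, 73.9, 58.9 and 70.0 in anti-Ly6G pools (0.26 ± 0.09 SE, adjusted p = 0.0393, limma). Among core subunits of complex I, Ndufs1, Ndufs3, Ndufs7, Ndufs8, Ndufv1 and Ndufv2 had changes from 0.02 to 0.19 and none passed.

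Complex III gave 2 genes. Uqcr11, its smallest subunit, had 106, 98.9, 97.9 and 91.1 in control and 125, 125, 99.8 and 132 in anti-Ly6G pools (0.28 ± 0.09 SE, adjusted p = 0.0329, limma). Uqcrc2, a core protein on the matrix side, had 258, 249, 262 and 227 in control and 311, 294, 268 and 272 in anti-Ly6G pools, without overlap but close to the threshold (0.20 ± 0.07 SE, adjusted p = 0.0486, limma). No gene of complex II passed: the 4 changes lay between 0.03 and 0.08, and Sdhd had 229 ± 20.4 in control and 235 ± 15.7 in anti-Ly6G pools. Groups did not overlap for 8 of the 76 genes, 6 higher (7.89%, against 14.2% of all genes) and 2 lower (2.63%, against 13.1%).

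**Figure D3:**
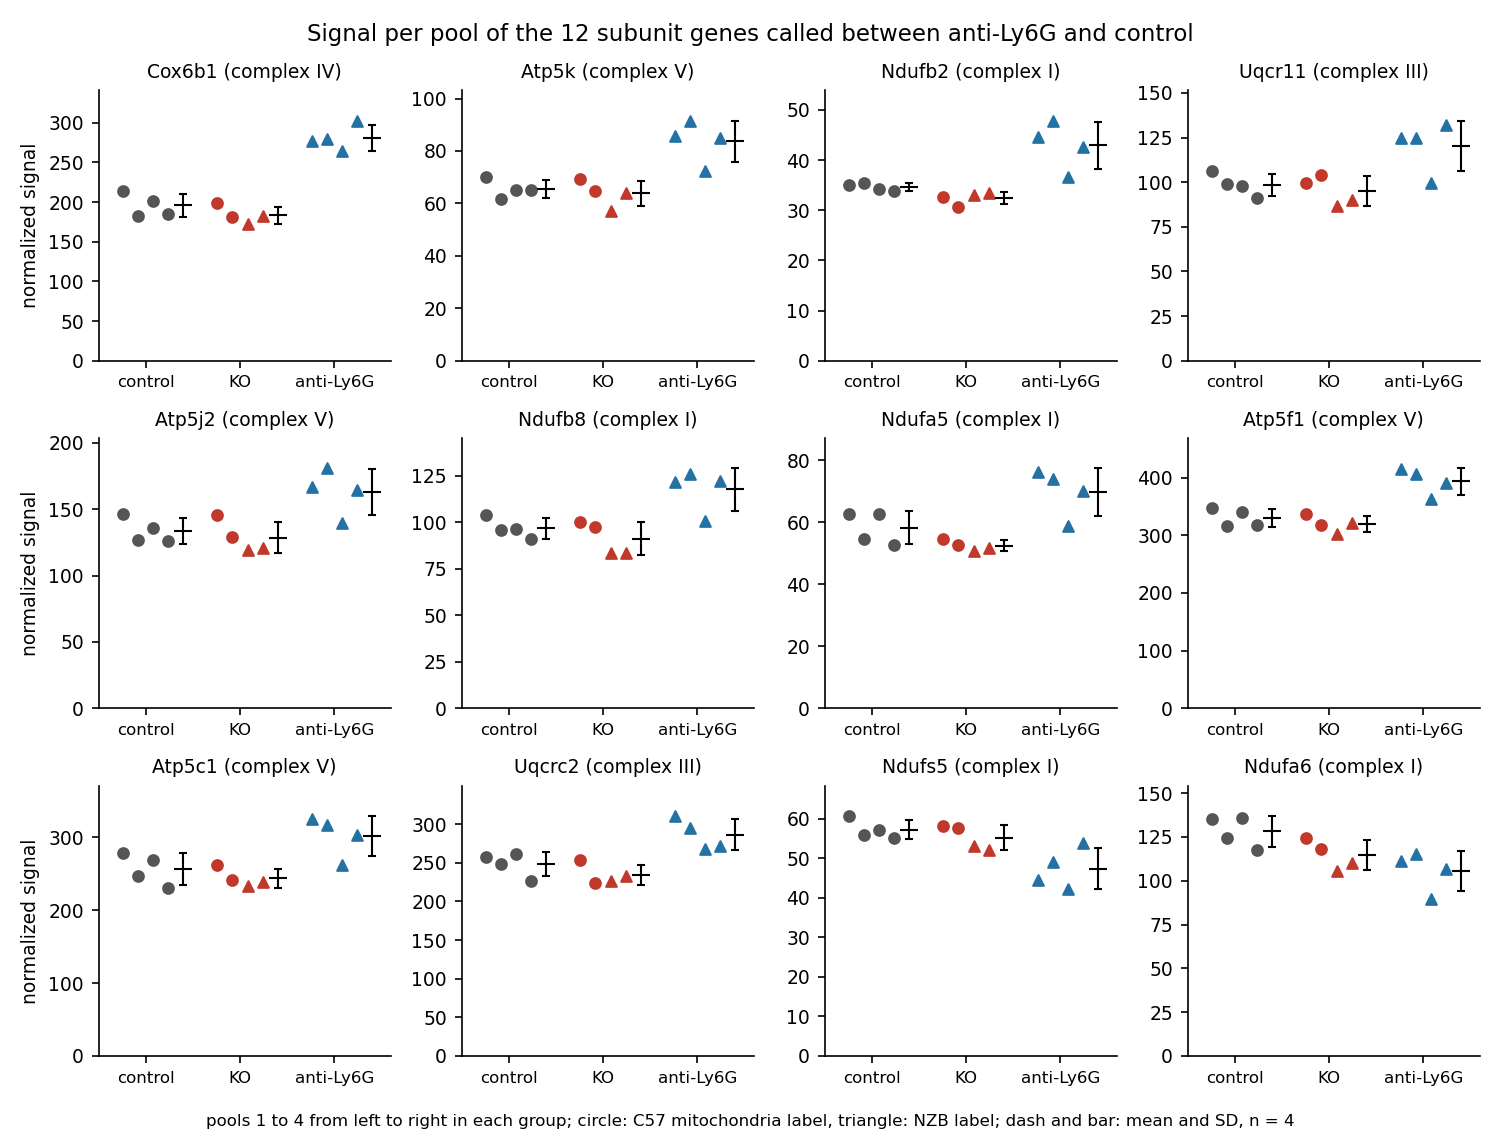
Normalized signal per pool of the 12 subunit genes called between anti-Ly6G and control, each panel from 0; points are pools 1 to 4 from left to right, circles carry the C57 and triangles the NZB mitochondria label, and dashes with bars are mean and SD (n = 4). Anti-Ly6G pool 3 is the lowest of its group in all 12 panels, and Cox6b1 stands clear of the other groups in all 4 anti-Ly6G pools.

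Anti-Ly6G pool 3 stood apart. It held the lowest anti-Ly6G value for 66 of the 76 genes (86.8%), where it did so for 24.5% of all genes, and its median deviation was -0.06 against 0.13, 0.18 and 0.17 in the others. Without it 20 subunit genes were called against control, 19 higher and 1 lower (limma), where 14.3% of all genes were higher and 15.3% lower. The other anti-Ly6G pools and the control pools pulled the count the other way, which fell to 5 without anti-Ly6G pool 1, to 6 without anti-Ly6G pool 2 or control pools 2, 3 or 4, and to 7 without anti-Ly6G pool 4, where all genes gave 23.7% to 30.9% called. Cox6b1, Atp5k, Ndufb2 and Atp5f1 were called whichever pool was left out. Since every anti-Ly6G pool carries the NZB label and every control pool C57, treatment and label cannot be told apart within this pair of groups. A fit with the label as a term, which takes its size from the KO pools, called 3 genes higher (Cox6b1, Atp5k and Ndufb8) and none lower, with a median change of 0.25, where 8.25% of all genes were called.

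Both genes that fell belong to complex I. Ndufa6, an accessory subunit of the matrix arm, had 135, 124, 136 and 118 in control, 125, 118, 106 and 110.3 in KO and 111, 115, 89.7 and 106 in anti-Ly6G pools. No anti-Ly6G pool reached the lowest control pool (-0.28 ± 0.09 SE, adjusted p = 0.0247, limma), but the call was lost without anti-Ly6G pool 3 (-0.21, adjusted p = 0.0599), without control pool 1 or 3 (adjusted p = 0.0625 and 0.0676) and with the label as a term (-0.11, adjusted p = 0.647). Ndufs5, an accessory subunit on the intermembrane-space side, had 60.8, 56.0, 57.1 and 55.2 in control, 58.2, 57.6, 53.1 and 52.0 in KO and 44.4, 49.0, 42.3 and 53.8 in anti-Ly6G pools (-0.27 ± 0.08 SE, adjusted p = 0.0184, limma). Its groups did not overlap either, and its call too was lost with the label as a term (-0.14, adjusted p = 0.542), and without control pool 1 or anti-Ly6G pool 1 (adjusted p = 0.0505 and 0.051).

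The Ndufs5 value has to be read with a processed pseudogene, BC002163 (ENSMUSG00000081824, chr16:42955631-42955949, plus strand, GRCm38), a separate row of the table that holds 28.0% of the 25-base words of Ndufs5. Its signal was 0.819, 0.601, 0 and 1.39 in control pools, 0 in all 4 KO pools and 26.2, 22.5, 15.1 and 17.2 in anti-Ly6G pools. The log2 change against control was 4.23 on the scale of signal plus 0.5 (adjusted p = 1.74e-06, limma), and KO pools were at 0, NZB-labelled ones included. Both rows summed gave 61.6, 56.6, 57.1 and 56.6 in control and 70.6, 71.5, 57.5 and 71.0 in anti-Ly6G pools, so the sum changed by 0.22 against control (adjusted p = 0.0509) where Ndufs5 alone had -0.27, and by -0.29 in KO against anti-Ly6G (adjusted p = 0.0163, limma). The sequences are shown because they are nearly the same. Of 319 aligned bases of the coding sequence 2 differ, T81C and A105G (Ndufs5 base, position counted from the A of its start codon, BC002163 base), in GENCODE vM21 transcripts. The stretch from position 51 to 135 follows, with both differing bases in capitals:
Ndufs5: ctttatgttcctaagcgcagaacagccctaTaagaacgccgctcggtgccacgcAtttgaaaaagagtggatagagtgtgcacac
BC002163: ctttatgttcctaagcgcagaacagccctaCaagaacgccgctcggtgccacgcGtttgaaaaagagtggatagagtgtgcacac

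**Figure D4:**
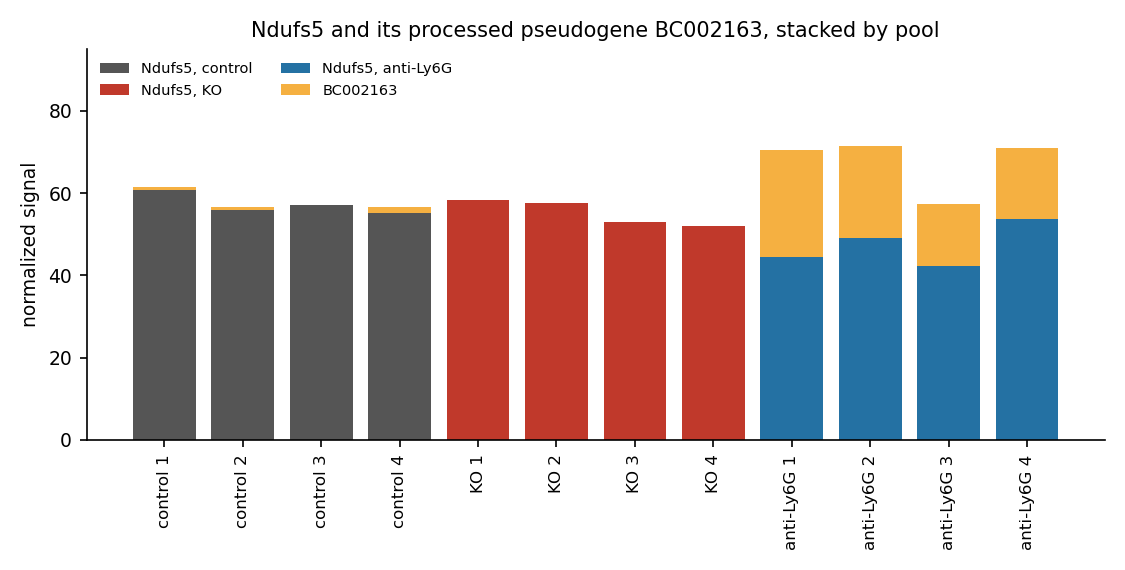
Normalized signal of Ndufs5 (lower part of each bar, coloured by group) and of its processed pseudogene BC002163 (upper part) in the 12 pools, stacked from 0. BC002163 reached 15.1 to 26.2 in anti-Ly6G pools and at most 1.39 elsewhere. Summed bars of anti-Ly6G pools, 57.5 to 71.5, overlap with those of control pools, 56.6 to 61.6.

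Pseudogene rows of 3 other subunit genes were in the table and behaved otherwise. Only processed pseudogenes that hold at least 5% of the 25-base words of a subunit gene were looked at. Gm10039 (for Atp5g1) had 23.4 ± 1.21 in control and 24.6 ± 4.29 in anti-Ly6G pools, Gm12338 (for Cox7c) 28.2 ± 3.16 and 29.0 ± 5.71, and Gm3244 (for Ndufb4) 50.9 ± 3.88 and 52.2 ± 7.998 (SD, n = 4), with none called.

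In KO against anti-Ly6G, 22 of the 76 genes were lower in KO and 0 higher. This was 28.9%, against 26.8% of all genes in either direction, and for the lower direction alone 28.9% against 13.1%, and 0 higher against 13.6%. At an unadjusted p under 0.05 there were 42, or 55.3% against 39.6%. Of the 22, 11 were in complex I, 3 in complex III, 3 in complex IV and 5 in complex V, and none in complex II. The median was -0.20 where all genes had -0.01, and 70 of 76 lay below 0 (92.1%, against 51.8% of all genes). Groups did not overlap for 15, all lower in KO (19.7%, against 13.5% of all genes), and 0 higher against 13.8%. Both comparisons use the same anti-Ly6G pools, so one is no check of the other. With columns set to equal totals the split was 3 higher and 11 lower, where 19.8% of all genes were higher and 5.95% lower.

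Among complex I genes Ndufa5 had 52.5 ± 1.66 in KO and 69.8 ± 7.73 in anti-Ly6G pools (-0.40 ± 0.09 SE, adjusted p = 0.00473, limma) and Ndufb2 32.4 ± 1.26 and 43.0 ± 4.75 (-0.39 ± 0.08 SE, adjusted p = 0.00259, limma). Further accessory genes of the membrane arm were also lower: Ndufb5 read 82.9, 79.7, 71.4 and 80.3 in KO and 111, 108, 83.7 and 100.9 in anti-Ly6G pools, with no overlap (-0.36, adjusted p = 0.0127, limma). Ndufb9 read 181, 177, 156 and 163 in KO and 222, 225, 179.7 and 228 in anti-Ly6G pools, where pool 3 overlapped with KO (-0.33, adjusted p = 0.0116, limma). Ndufb6 had 38.2 ± 1.97 and 47.7 ± 5.08 (-0.31, adjusted p = 0.0108, limma). Core subunits were among the called here: Ndufs1, which carries several iron-sulfur clusters, had 113.9 ± 7.00 in KO and 135 ± 3.70 in anti-Ly6G pools (-0.25, adjusted p = 0.0169, limma), and Ndufs3 had -0.22 (adjusted p = 0.0331, limma).

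In complexes III and IV 3 of 9 and 3 of 11 genes were called. Cyc1 had 174 ± 9.14 in KO and 204 ± 18.9 in anti-Ly6G pools (-0.23, adjusted p = 0.0355, limma), Uqcr11 had -0.34 and Uqcrc2 -0.29. Cox7b had 199, 189, 157 and 178 in anti-Ly6G pools, all above the KO pools (-0.36 ± 0.08 SE, adjusted p = 0.00718, limma), and Cox7a2l had 139, 128, 115 and 131, also all above KO (-0.27, adjusted p = 0.0189, limma). Cox7a2, the canonical paralog, had -0.08 (adjusted p = 0.501, limma). In complex V Atp5k, Atp5j2, Atp5c1 and Atp5f1 had log2 changes from -0.39 to -0.30, all called, and Atp5g3 had -0.19 (adjusted p = 0.0423, limma), while its paralog Atp5g1 had -0.15 and did not pass (adjusted p = 0.248). The 3 highest values were those of Cox6b2 (0.42, adjusted p = 0.0765), Ndufs5 (0.22, adjusted p = 0.0511) and Ndufa6 (0.12, adjusted p = 0.311, limma), none of them called.

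This comparison can be made within one mitochondria label. KO pools 3 and 4 against the anti-Ly6G pools, all labelled NZB, gave 24 genes lower and 0 higher, 19 of them among the 22, with a median of -0.25 (all genes: 8.24% lower, 9.07% higher, median -0.01). Without anti-Ly6G pool 3 there were 39 lower and 0 higher (12.6% of all genes lower), and without KO pool 3 there were 14 lower (9.78% of all genes). Called in the fit reported here and under all 20 alternatives fitted to the whole table were Cox6b1, Cox7b, Ndufa5, Ndufb2, Ndufb5, Ndufb8, Ndufb9, Atp5f1, Atp5j2 and Atp5k.

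The subunit genes rose and fell together from pool to pool. Control pool 1 held the highest control value for 65 of 76 genes and control pool 4 the lowest for 53, KO pool 1 held the highest KO value for 62 and KO pool 3 the lowest for 46. Over all genes no pool took more than 32% of the lowest or 29.7% of the highest places. The median deviation from the 12-pool mean was 0.11, -0.05, 0.01 and -0.10 in control pools 1 to 4, 0.02, -0.07, -0.17 and -0.14 in KO pools, and 0.13, 0.18, -0.06 and 0.17 in anti-Ly6G pools, so the groups overlapped. Medians of the 5 complexes shared their sign in every pool except 2: in control pool 3 complex IV stood at -0.06 and complex II at 0.06, and in KO pool 1 complex III stood at -0.01 and complex IV at 0.05. Across the 76 genes the Pearson correlation of the change with log2 transcript length was -0.08 in KO against control, -0.10 in anti-Ly6G against control, 0.05 in KO against anti-Ly6G and 0.26 between the KO labels (genes share pools, so these are descriptions).

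Markers of cell types moved in the same comparisons. All genes gave 1.12% called in KO against control, 30.4% in anti-Ly6G against control (15.3% lower) and 26.8% in KO against anti-Ly6G. Hepatocyte markers had a median change of -0.13 in KO against control, 0.11 in anti-Ly6G against control, -0.25 in KO against anti-Ly6G and -0.32 between the KO labels, with 1 of 10 called in the third of these (Asgr1, -0.29, adjusted p = 0.0489, limma) and none in the others. Their summed signal was 112020 to 151887 in anti-Ly6G and 103599 to 133520 in KO pools. Against control, anti-Ly6G pools were lower in 6 of 12 macrophage, 6 of 10 stellate cell and 3 of 4 neutrophil markers measured. They were also lower in 3 of 3 lymphocyte, 3 of 8 endothelial and 2 of 2 bile duct markers (Spp1 and Sox9). The neutrophil, lymphocyte and bile duct lists held more markers than were measured. No measured marker of these lists was at 0 throughout a group. Summed macrophage markers were 619 to 1072 in control, 899 to 1063 in KO and 365 to 549 in anti-Ly6G pools, and the median macrophage change in KO against control was 0.34, with none of 12 called. Endothelial markers had a median of -0.33 in KO against control and 0.51 between the KO labels, with none of 8 called in either. Stellate markers had a median of 0.51 in KO against control, with 1 of 10 called, and their summed signal was 343 to 506, 454 to 561 and 256.2 to 402 in control, KO and anti-Ly6G pools. Fewer cells of a type and less RNA per cell cannot be told apart in whole-liver RNA, and the part of these markers in the subunit values was not tested.

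**Figure D5:**
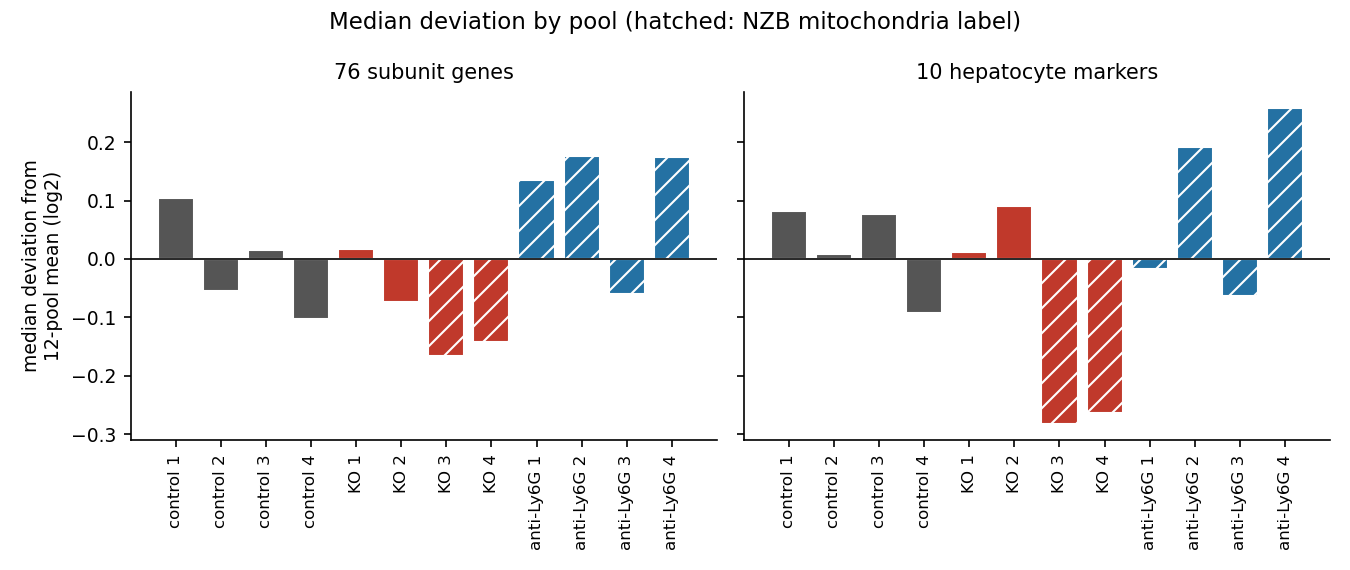
Median deviation from the 12-pool mean (log2) of the 76 subunit genes (left) and of 10 hepatocyte markers (right) in each pool, coloured by group and hatched for the NZB mitochondria label. KO pools 3 and 4 are lowest in both panels, and anti-Ly6G pools 2 and 4 are highest in both. Control pool 2 (-0.05 and 0.01), KO pool 2 (-0.07 and 0.09) and anti-Ly6G pool 1 (0.13 and -0.02) differ in sign between the panels.

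Promoters give a further view of what the genes share. RefSeq promoter windows (GRCm38.p6, 250 bases before to 50 after the start) were matched for 65 of the 76 genes, giving 71 windows. The motif of NRF1, a factor that controls many respiratory genes, lay on either strand in 23.9% of them, against 9.88% of the windows of all genes in the table and 4.60% of all RefSeq windows. The YY1 motif ATGGCGGC lay in 12.7% (9 windows of 7 genes), against 4.89% and 2.24%. The estrogen-related receptor motif TCAAGGTCA lay in 2.82%, which is only 2 windows, against 0.284% and 0.423%. The ETS motif CCGGAAGT, read by GABP among others, lay in 7.04% (5 windows), against 8.17% and 3.89%. NRF1 letters lay in 17 windows of 16 genes. Windows of a gene can overlap, and the same Ndufa5 site was counted more than once. Matches of different motifs overlapped in 0 of the 71 windows, and a match is a description of the letters alone. NRF1 letters were in 3 of the 9 matched genes that rose in anti-Ly6G pools and in both that fell, and of the genes called in that comparison 1, Uqcr11, held ETS letters, while the Cox6b1 window held none of the 4. The motifs of the genes called in anti-Ly6G against control are shown with 10 bases on each side, motif in capitals, 5′ to 3′ on the gene's strand, which is the minus strand in each case:
Atp5c1 (chr2:10080430-10080459): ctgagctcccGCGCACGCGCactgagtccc
Atp5k (chr5:108434430-108434459): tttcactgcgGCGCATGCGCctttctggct
Ndufa5 (chr6:24527697-24527726): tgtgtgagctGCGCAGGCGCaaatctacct
Ndufa6 (chr15:82354249-82354278): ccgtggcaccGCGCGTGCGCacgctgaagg
Ndufs5 (chr4:123718265-123718294): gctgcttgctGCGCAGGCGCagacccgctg
Uqcr11 (chr10:80406870-80406897): tctctcctccCCGGAAGTagatgtcaat

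Of 19 measured regulators of mitochondrial biogenesis and mitochondrial DNA, 1 fell in KO against control: Ppargc1b, which encodes the coactivator PGC-1β, had 9.53 ± 2.54 in control and 4.85 ± 0.219 in KO pools (-0.88, adjusted p = 0.0415, limma). It was also low in anti-Ly6G pools (5.17 ± 1.28, -0.82 against control, adjusted p = 0.0048, limma). In that comparison 5 regulators rose, among them Peo1 (Twinkle, the mitochondrial DNA helicase) by 0.68, Polg, its DNA polymerase, by 0.53, Mterfd2 by 0.50 and Tfam, which packages mitochondrial DNA, by 0.24 (adjusted p 0.00094, 0.00209, 0.00487 and 0.0152, limma). Ppargc1a had 27.1 ± 5.72 in control and 28.1 ± 2.47 in anti-Ly6G pools, Nrf1 9.36 ± 1.52 and 9.02 ± 0.710, and Gabpa 33.4 ± 2.43 and 33.2 ± 2.88, and none of the 3 passed. In KO against anti-Ly6G 7 of 19 were lower and 0 higher. Over all genes 0.534% fell in KO against control, and 15.1% rose and 15.3% fell in anti-Ly6G against control. KO against anti-Ly6G had 13.1% of all genes lower and 13.6% higher.

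Of 49 measured assembly factors, 0 passed in KO against control, and in anti-Ly6G against control 19 rose and 3 fell, with a median of 0.22. Over all genes 1.12% were called in the first comparison, and 15.1% rose and 15.3% fell in the second. Bcs1l, the chaperone that inserts the Rieske protein into complex III, rose from 4.74 ± 0.428 to 7.61 ± 0.982 (0.62, adjusted p = 0.00223, limma), and Cox19, a copper-handling factor of complex IV, from 24.3 ± 0.213 to 34.2 ± 0.824 (0.49, adjusted p = 0.000312, limma). Ttc19 (complex III) rose by 0.37 and Ndufaf4 (complex I) by 0.38. In KO against anti-Ly6G 11 assembly factors were lower and 2 higher, where 13.1% of all genes were lower and 13.6% higher. Cox15, an enzyme of heme A synthesis, was among the higher (0.40, adjusted p = 0.00668, limma). The 6 genes that the name pattern leaves out included 2 that rose in anti-Ly6G against control. These were Ndufab1, the mitochondrial acyl carrier protein and a subunit of complex I (37.8 ± 2.58 to 56.2 ± 3.65, 0.57, adjusted p = 0.000329, limma), and Usmg5, a small subunit of ATP synthase (0.27, adjusted p = 0.0448, limma). Both were lower in KO against anti-Ly6G, and none of the 6 passed in KO against control.

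The 13 subunits of the mitochondrial genome included rises and falls. None passed in KO against control, and in anti-Ly6G against control mt-Nd3, mt-Atp8 and mt-Atp6 rose by 0.60, 0.43 and 0.37 (adjusted p 0.0015, 0.00731 and 0.0354, limma) while mt-Nd6 and mt-Nd1 fell by 0.33 and 0.28 (adjusted p 0.0271 and 0.0445, limma). In KO against anti-Ly6G 4 were lower, mt-Atp8, mt-Nd3, mt-Atp6 and mt-Nd2, with log2 changes from -0.56 to -0.32. Over all genes 15.1% rose and 15.3% fell in anti-Ly6G against control, and 13.1% were lower in KO against anti-Ly6G. Only 1.85% of the 25-base words of mt-Nd3 and 0.46% of those of mt-Atp6 are unique in the annotation, which makes these values uncertain, and the mitochondria label, which differs between control and anti-Ly6G pools, names the genome that these genes come from.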

How the data were processed

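For 12 pools of mouse liver RNA the deposited unit is a normalized signal, listed by the authors for 11791 genes. Per the submitters' processing notes, the build was GRCm38 and the tools included Bowtie2 2.0.6, RSEM 1.2.3, cutadapt 1.2.1 and edgeR. Their roles, the annotation, the use of strand and the rule for listing a gene: not given in the sources used here. All deposited signals (100%) were whole multiples, within 0.01, of the value of 1 read, and TMM factors from the recovered reads returned the deposited scaling with a ratio of 1 in each pool.

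Limma-trend (limma 3.58.1, R 4.3.3) was fitted to log2(signal + 0.5) of all genes and 12 pools with group as the only term, and p-values were adjusted by Benjamini-Hochberg over all genes with a threshold of 0.05. On this scale changes of weakly expressed genes come out too small. The filter, a mean of at least 1 in a group, removed none of the 76 genes. EdgeR 4.0.16 (quasi-likelihood) and DESeq2 1.42.0 on recovered reads were alternatives; over all genes edgeR called 153, 3558 and 3169 and DESeq2 577, 3789 and 3434 in the 3 comparisons. The fitting script was tested on simulated data.

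Members and gene lists were chosen with earlier results of these data known. Named subunit genes are up to 12 called with the lowest p in each comparison, the 3 largest changes in each direction, the 2 highest and the lowest per kilobase of each complex, and paralogs. Ndufs1, Ndufs3, Cyc1, Atp5a1, Gabpa and the other genes named outside this rule were named after their values were seen. From each other list of the pathway, up to 4 called genes with the lowest p were named, with the same exceptions. Signal per kilobase used 1 basic GENCODE vM21 transcript per gene. Genes unmatched in the promoter table included Atp5a1, Cox6c, Cyc1, Ndufa2, Ndufb9, Ndufs1, Sdhc, Uqcrb, Uqcrc2 and Uqcrq.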

Additional observations from a re-analysis of the deposited data

Results flagged for a closer look

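A pool was listed here when its gap to the nearest pool of its group was a larger share of the group's range than the 95% critical value of Dixon's test. Of 105 groups tested, which do not cover all 76 genes, 5 held such a pool. Chance alone gives about 1 in 20 for independent groups. The subunit genes rose and fell together from pool to pool, so that share is no yardstick here. Anti-Ly6G pool 3 was the low pool for Ndufa4 (238.8, others 290.3 to 297), Ndufb8 (100.7, others 122 to 126) and Ndufb9 (179.7, others 222 to 228). Anti-Ly6G pool 4 was high for Ndufs7 (98.04, others 74.96 to 78.7). Control pool 4 was low for Cox7a2l (119.6, others 125 to 126).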

How the results depend on the processing

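Pseudocounts of 0.1 and 1, no filter, a filter at a mean of 5, DESeq2 size factors, edgeR, DESeq2 and the added pseudogene signal (this last chosen after seeing the data) kept the counts of called subunit genes within 1.5 times in all comparisons. With columns set to equal totals KO against anti-Ly6G gave 14 called, where 25.7% of all genes were called, and a median of -0.0861 (all genes 0.09). NZB against C57 within KO then had a median of -0.0358 (all genes 0.11). With the mitochondria label as a term anti-Ly6G against control gave 3 called, where 8.25% of all genes were called, and a median of 0.25. Among the 44 genes with at least 90% unique 25-base words 6 were called in anti-Ly6G against control and 9 in KO against anti-Ly6G. Fewer genes enter these counts, and all genes gave 30.4% and 26.8% called. Leaving out each pool in turn gave 0 called in KO against control, 5 to 20 in anti-Ly6G against control and 14 to 39 in KO against anti-Ly6G. Over all genes these fits called 0.0254% to 2.71%, 23.7% to 30.9% and 20.1% to 27.7%. Medians of the subunit genes were -0.11 to -0.04, 0.07 to 0.15 and -0.25 to -0.16 in the same order, and -0.18 to -0.08 between the KO labels. Where a pool left out gave a group 1 pool, that pool is assumed to vary like the others. Of 1230 values of single named genes, 1107 stayed on their side of the threshold, 114 were no longer called, 6 became called and 3 changed sign: Ndufs5 with its pseudogene added (0.22 against control, -0.29 in KO against anti-Ly6G) and Atp5s in KO against control without control pool 2 (-0.0188). The cause was not tested. Pools share replicate numbers, but same-numbered pools did not deviate together (correlations -0.21 to 0.17, other pairs -0.19 to 0.24). With the replicate number as a block, 0, 12 and 24 genes were called in the 3 comparisons in order.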

Other observations

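Other mitochondrial gene groups were measured beside the subunits. Over all genes 1.12% were called in KO against control. In anti-Ly6G against control 15.1% rose and 15.3% fell, and in KO against anti-Ly6G 13.6% were higher and 13.1% lower. Of 76 proteins of the mitochondrial ribosome, which translates the subunits written in mitochondrial DNA, 0 passed in KO against control, 17 rose and 1 fell in anti-Ly6G against control (median 0.12), and 1 was higher and 18 were lower in KO against anti-Ly6G (median -0.12). Of 17 enzymes of the tricarboxylic acid cycle and pyruvate dehydrogenase, which supply NADH and succinate to complexes I and II, 0 passed in KO against control, 1 rose and 1 fell in anti-Ly6G against control (median 0.03), and 2 were higher and 2 lower in KO against anti-Ly6G (median -0.07).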
